A study of Mus musculus with 6 samples.

Results

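The 8 MHC class II genes described here are H2-Aa, H2-Ab1, H2-Eb1, H2-DMa, H2-DMb1, H2-Oa, Cd74 and Ciita, chosen by gene name from the 46983 genes of the deposited table. All 8 were found, and all 8 passed the filter on low values. The study sequenced RNA from the aortic valves of wild type C57BL/6J mice, with 3 libraries from pups at postnatal day 2 (PND2) and 3 from adults aged 4 months. Each library was a pool of valves from 5 to 6 animals, so it averages over animals, and the labels call the 3 libraries of an age biological replicates. No animal carried a transgene or received a treatment according to the labels. The comparison asks how the transcriptome of a valve that is still growing and remodelling differs from that of a mature one.

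MHC class II molecules present peptides from ingested proteins to CD4+ T cells. An alpha and a beta chain pair in the endoplasmic reticulum with the invariant chain, the product of Cd74, which blocks the peptide groove and directs the complex to endosomes. There proteases trim the invariant chain, and the DM heterodimer exchanges its last fragment for an antigenic peptide, while the DO heterodimer restrains DM. The genes are switched on together by the coactivator CIITA, which binds no DNA itself but docks on factors bound to the X and Y boxes of the promoters. Dendritic cells, B cells and some macrophages express class II constitutively, and interferon gamma can induce it in other cells.

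Of the 8 genes, 6 lie on chromosome 17 of mm10 within 223.9 kb. In order along the chromosome these are H2-Oa (34092340 to 34095234, plus strand), H2-DMa (34135182 to 34139101, plus), H2-DMb1 (34153072 to 34160230, plus), H2-Ab1 (34263209 to 34269418, plus), H2-Aa (34282744 to 34287827, minus) and H2-Eb1 (34305877 to 34316199, plus). Ciita lies on chromosome 16 (10488178 to 10527564, plus).

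Because the genes that CIITA switches on are known to share one promoter module, the bases upstream of their starts were read from RefSeq (GRCm38.p6, the same assembly as mm10). RefSeq promoter entries starting within 200 bases of the deposited gene start were at hand for 4 of the 8 genes, H2-Aa, H2-Eb1, H2-DMb1 and H2-Oa. On either strand of the 250 upstream bases, the Y box pentamer ATTGG was present in 4 of these 4 and in 33.8% of 32851 promoters of that length. The X box core (GNAAC, any 2 bases, then ATG) was present in 2 of the 4, H2-Eb1 and H2-DMb1, and in 2.1% of all promoters. An X core followed by ATTGG 10 to 40 bases downstream was found in the same 2 genes and in 0.0609% of all promoters (20 promoters). The beta chain gene of DO, H2-Ob, also held both. The last 120 bases before the start are shown for the alpha chain gene H2-Aa, for the beta chain gene H2-Eb1 and for H2-Ob. Each stretch ends before the deposited or the RefSeq start, whichever lies further upstream. The stretches read 5′ to 3′ on the strand of the gene, with ATTGG, its reverse complement and the X core in capitals.
H2-Aa, chr17:34287828-34287947, minus strand: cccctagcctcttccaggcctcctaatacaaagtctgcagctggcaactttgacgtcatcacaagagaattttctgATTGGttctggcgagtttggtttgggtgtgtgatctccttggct
H2-Eb1, chr17:34305747-34305866, plus strand: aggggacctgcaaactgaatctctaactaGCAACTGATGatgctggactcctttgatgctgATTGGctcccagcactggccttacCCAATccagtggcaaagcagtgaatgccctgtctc
H2-Ob, chr17:34238783-34238902, plus strand: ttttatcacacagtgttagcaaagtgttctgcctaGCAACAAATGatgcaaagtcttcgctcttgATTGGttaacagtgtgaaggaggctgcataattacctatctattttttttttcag
In H2-Eb1 the X core lay 91 bases and ATTGG 59 bases before the RefSeq start, and in H2-Ob 87 and 57 bases. ATTGG lay 48 bases before the RefSeq start in H2-Aa and 43 in H2-Oa, with no X core match in these letters. Such matches describe the sequence and are not evidence of binding.

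The deposited values are RPKM, reads scaled to exon length and library total. Summed over genes, the reads exceeded the library total in all 6 libraries. The count of Cd74 equalled the sum over its 9 exons, each in its longest version, in 6 of 6 libraries, as did that of Ciita over its 19. How a read that touches more than 1 exon was counted is not given in the sources used here, so the order of levels between genes, although per length, may depend on the number and length of their exons. A comparison of 1 gene between the ages uses the same exons at both, but whether the counting affects it was not tested. Library totals ran from 23810507 to 38994657, so that a single read per kilobase stood for 0.0256 to 0.042 RPKM. Libraries of one age correlated at 0.961 to 0.97 across genes and those of different ages at 0.911 to 0.922. Tissue markers were those of valve together with cardiac muscle. The 8 interstitial cell genes summed to 6501 to 7152 RPKM at PND2 and 8033 to 10135 at 4 months, and 8 cardiomyocyte genes summed to 16085 to 17783 and 6594 to 10030 RPKM. By limma, 2 of these interstitial genes were higher and 4 lower at 4 months, and 0 of these cardiomyocyte genes were higher and 3 lower. Of 8 adipocyte genes 6 were higher, and they stood out in 4 months replicate 2, at a sum of 862 RPKM against 291 and 413 in the other libraries of that age. Of the 25903 genes tested with limma on log2(RPKM + 0.1), 35.8% differed between the ages at an adjusted p under 0.05, 14.7% being higher and 21.1% lower at 4 months, and the median over all of them was a log2 fold change of -0.14. The balance turned with each library scaled by its median log2 ratio, which gave 17.8% higher (4601 genes) and 15.9% lower (4129 genes). It did not turn with quantile normalization, which gave 16.4% higher (4247 genes) and 18.5% lower (4797 genes).

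All 8 class II genes were higher at 4 months by limma without scaling, against 14.7% of all genes, and all 8 were with either scaling too. In each, every 4 months library lay above every PND2 library, which held for 20.0% of all genes. Their median log2 fold change was 4.57. Together they summed to 21.5, 22.8 and 22.2 RPKM in PND2 replicates 1 to 3 and to 1264, 984 and 1086 RPKM in the 4 months replicates, a 50.2-fold difference of means. Cd74 and the 3 genes of the surface chains made up 77.0 to 86.0% of that sum at PND2 and 95.8 to 96.0% at 4 months. In these whole valves, fewer cells of a type and less RNA per cell cannot be told apart.

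**Figure D1:**
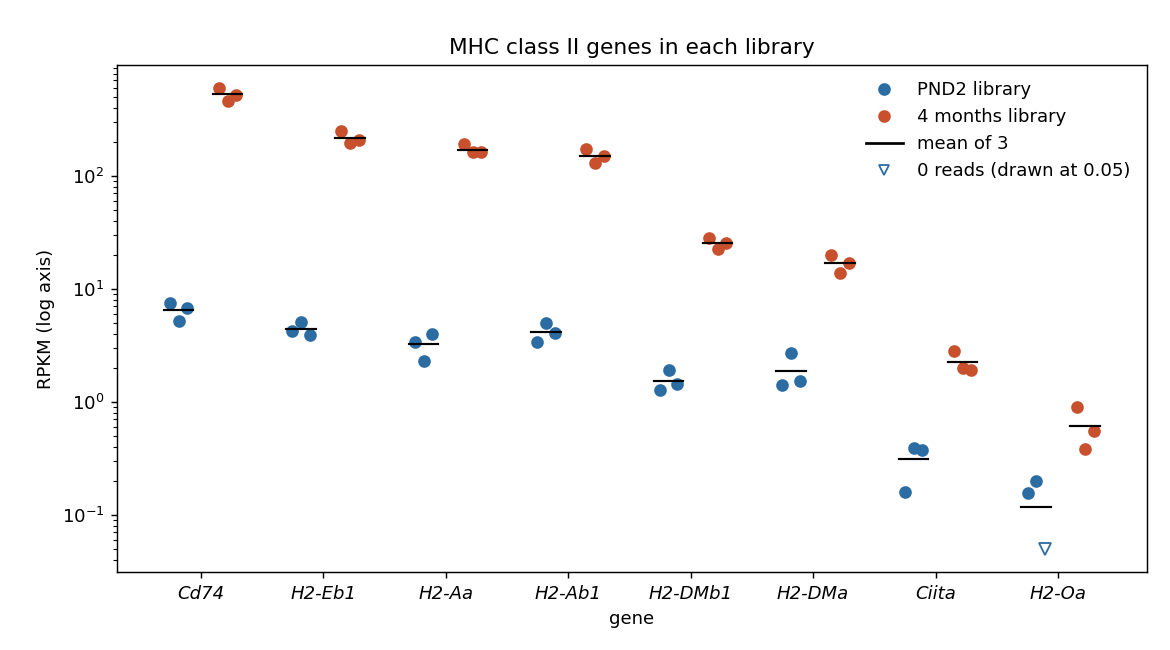
RPKM (log axis) of each class II gene in the 3 PND2 libraries (blue) and the 3 libraries of 4 months (red), with the mean of 3 as a black line; an open triangle marks a library with 0 reads. Points of the ages do not overlap for any of the 8 genes, and the gap is widest for Cd74, from 5.21 to 7.47 up to 455.5 to 599 RPKM.

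Cd74, the invariant chain gene on chromosome 18, was the most abundant of the 8 at both ages. It measured 7.47, 5.21 and 6.74 RPKM in PND2 replicates 1 to 3 and 599, 455.5 and 522 RPKM in 4 months replicates 1 to 3. The lowest 4 months library was 60.9 times the highest PND2 library. Its mean rose 81.2-fold, from 6.47 ± 1.16 to 525 ± 71.7 RPKM (SD, n = 3), with a log2 fold change of 6.33 ± 0.16 (SE, adjusted p = 4.7e-06 by limma). Among 21930 protein-coding genes it stood at position 130 by mean level at 4 months and at position 9606 at PND2. Its log2 fold change was the 24th highest of the 25903 genes tested. A microRNA gene, Mir5107, is annotated within Cd74 on the same strand (1.00 and 167 RPKM), so reads there are shared with Cd74.

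The surface chains followed closely. H2-Aa encodes the alpha chain of I-A, the class II molecule that C57BL/6 mice display. It was at 3.37, 2.31 and 4.01 RPKM in the PND2 libraries and at 190.1, 161 and 162 RPKM in the 4 months libraries. The rise was 53.0-fold, from 3.23 ± 0.860 to 171 ± 16.4 RPKM, or 5.72 ± 0.20 as log2 fold change (SE, adjusted p = 1.4e-05 by limma). The beta chain gene H2-Ab1 was at 3.38, 4.96 and 4.11 RPKM at PND2 and at 174, 131 and 149 RPKM at 4 months. It rose 36.4-fold, from 4.15 ± 0.791 to 151 ± 21.6 RPKM, or 5.16 ± 0.17 as log2 fold change (SE, adjusted p = 1.2e-05 by limma). For both chains of I-A the lowest adult library was at least 26.4 times the highest PND2 library.

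H2-Eb1 encodes the beta chain of I-E, the other surface molecule. Its values were 4.25, 5.06 and 3.93 RPKM at PND2 and 249, 197 and 208 RPKM at 4 months, with no overlap. The mean rose 49.4-fold, from 4.41 ± 0.587 to 218 ± 27.4 RPKM (log2 fold change 5.60 ± 0.13 SE, limma adjusted p = 4.7e-06). The alpha chain of I-E is not made in C57BL/6 mice, whose gene is defective. The row of that pseudogene, H2-Ea-ps, held a mean of 0.0664 RPKM at PND2 and 0.0781 at 4 months and was not tested, so H2-Eb1 transcript was abundant where its partner was at the limit of detection. H2-Eb2, a second I-E beta gene, was also below the filter, at 0.0426 and 0.0807 RPKM.

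The DM chains, which load peptide, rose by less. H2-DMa was at 1.41, 2.74 and 1.54 RPKM at PND2 and at 19.95, 13.8 and 17.1 RPKM at 4 months. This was an 8.95-fold rise, from 1.89 ± 0.732 to 16.96 ± 3.06 RPKM (log2 fold change 3.14 ± 0.27 SE, limma adjusted p = 0.00028). H2-DMb1 was at 1.28, 1.90 and 1.45 RPKM at PND2 and at 28.05, 22.7 and 25.7 RPKM at 4 months. It rose 16.5-fold, from 1.54 ± 0.320 to 25.5 ± 2.69 RPKM (log2 fold change 3.97 ± 0.18 SE, limma adjusted p = 3e-05). The neighbouring beta gene H2-DMb2 rose from 0.714 ± 0.311 to 8.77 ± 0.900 RPKM (log2 fold change 3.53, limma adjusted p = 0.00036). Of the 47-base words in H2-DMb1 transcripts, the length of a trimmed first read, 23.8% also occur in H2-DMb2, so the split between these 2 genes is uncertain. In H2-DMa 8.56% of the words occur in another gene.

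H2-Oa, the alpha chain of DO, was the least abundant. The PND2 libraries held 0.156, 0.1995 and 0 RPKM, from 8, 8 and 0 reads, and the 4 months libraries 0.8965, 0.3835 and 0.552 RPKM, from 44, 12 and 21 reads. The mean moved from 0.119 ± 0.105 to 0.611 ± 0.261 RPKM, which is 1.79 ± 0.52 as log2 fold change (SE), at an adjusted p of 0.034 by limma. This was the one call among the 8 that hung on single libraries. Its adjusted p was 0.079 without PND2 replicate 3, 0.1 without 4 months replicate 1 and 0.086 without 4 months replicate 3. H2-Oa overlaps the antisense gene BC051537 (0.0154 and 0.102 RPKM), and whether counting used strand is not given in the sources used here. Of the 47-base words in H2-Oa transcripts, 15.9% also occur in another gene. Its partner H2-Ob was at 0.114, 0.0831 and 0.130 RPKM at PND2 and at 0.883, 1.68 and 1.07 RPKM at 4 months (log2 fold change 2.61 ± 0.34 SE, limma adjusted p = 0.0015).

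Ciita, the coactivator, was a low transcript at both ages. It was at 0.161, 0.393 and 0.377 RPKM in the PND2 libraries, from 33, 63 and 58 reads. At 4 months it was at 2.83, 2.00 and 1.93 RPKM, from 556, 250 and 294 reads. It rose 7.26-fold, from 0.310 ± 0.130 to 2.26 ± 0.502 RPKM (log2 fold change 2.56 ± 0.35 SE, limma adjusted p = 0.0017). Ciita is transcribed from several promoters, each with a first exon of its own, which are used by different cell types. One such first exon is in the deposited exon table (chromosome 16, 10488178 to 10488424), and it held 0 reads in all 6 libraries. A count of 0 allows up to 3 reads, or 0.418 RPKM at 4 months, where the longest internal exon held 2.22, 1.86 and 1.88 RPKM. Other first exons were not analysed here. The gene overlaps Dexi on the opposite strand (8.32 and 10.4 RPKM), and of its 19 exons 12 were higher in every 4 months library than in any PND2 library, as were 11.4% of all exons in the table.

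Per length, the order at 4 months was Cd74, H2-Eb1, H2-Aa, H2-Ab1, H2-DMb1, H2-DMa, Ciita and H2-Oa. H2-Aa and H2-Ab1 overlapped in that order, while the libraries of every other pair of neighbours did not. At PND2 the order was Cd74, H2-Eb1, H2-Ab1, H2-Aa, H2-DMa, H2-DMb1, Ciita and H2-Oa, and only Cd74 and H2-Eb1, and H2-DMb1 and Ciita, were neighbours without overlap. Within the older group, replicate 1 was highest for all 8 genes, and replicate 2 was lowest for each gene but Ciita, which was lowest in replicate 3.

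Ratios of levels within a library, chosen after the values were seen, are given as a description. They restate the unequal fold changes given above, and no share for other pairs of genes was computed. Cd74 per H2-Ab1 was 2.21, 1.05 and 1.64 at PND2 and 3.44, 3.47 and 3.51 at 4 months, a narrow range at the older age. H2-DMb1 per H2-Ab1 went the other way, from 0.371 ± 0.0160 to 0.169 ± 0.00670. Ciita per H2-Ab1 was 0.0476, 0.0791 and 0.0917 at PND2 and 0.0163, 0.0152 and 0.0130 at 4 months. The ratio of H2-DMa to H2-DMb1 was above 1 in every PND2 library (1.06 to 1.44) and below 1 in every 4 months library (0.610 to 0.711). H2-Aa per H2-Ab1 was 0.812 ± 0.301 and 1.14 ± 0.0786, and H2-Eb1 per H2-Ab1 was 1.08 ± 0.158 and 1.44 ± 0.0532. Each of these 6 ratios was without overlap between the ages, with a 2-sided exact permutation p of 0.1, the smallest that 3 against 3 allow, and 0.133 after Benjamini-Hochberg adjustment over the 8 ratios computed. The other 2, H2-DMb2 per H2-DMb1 and H2-Oa per H2-Ob, overlapped (exact permutation p = 0.4 and 0.5).

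Exon values showed the same direction along the genes. They rest on the same reads as the gene values, so they add no independent support. Every exon in the table was higher in each 4 months library than in any PND2 library for Cd74 (12 of 12, shorter versions of its end exons included), H2-Aa (12 of 12), H2-Ab1 (10 of 10), H2-DMa (7 of 7) and H2-Eb1 (6 of 6). This held for 10 of 11 exons of H2-DMb1 and for 4 of 9 of H2-Oa. Over the whole table it held for 11.4% of the 448141 exons, and for 13.7% of those with a read in any library.

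Cd74 makes a short and a long invariant chain, and the long form carries an additional thyroglobulin-type domain that inhibits cysteine proteases. That domain comes from 1 exon of 192 bases, the 7th of the 9 exons of the coding transcripts, held by 2 of the 3 that are annotated. At 4 months the exon was at 169, 114 and 165 RPKM, from 1211, 520 and 916 reads. This was 17.7, 15.5 and 19.4% of the median of the other exons in the same library, or 17.5 ± 1.96% (n = 3). The share depended on the length of the exons it was set against. The 5 exons of 63 to 93 bases had means of 824 to 925 RPKM at 4 months, and those of 163, 170 and 495 bases had 287, 577 and 442 RPKM. Against the median of these 3 longer exons, chosen after the values were seen, the share at 4 months was 33.6, 29.5 and 37.5%, or 33.6 ± 4.03%. At PND2 only 14, 7 and 2 reads fell on the exon, and the shares were 23.8, 19.6 and 4.35% (29.5, 20.0 and 4.86% against the longer exons). With fewer than 10 reads in 2 of the 3 PND2 libraries, no difference between the ages in this share was detectable at this depth (2-sided exact permutation p = 1.0, and 0.2 against the longer exons). The exon of the long form was the lowest of the 9 Cd74 exons in all 6 libraries.

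**Figure D2:**
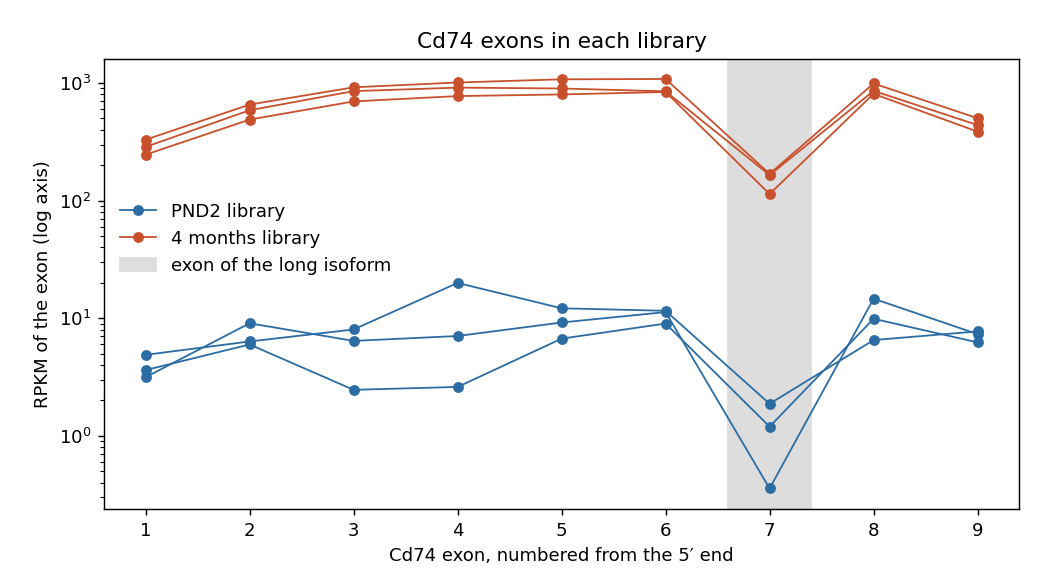
RPKM (log axis) of the 9 Cd74 exons, numbered from the 5′ end, in each PND2 library (blue) and each 4 months library (red), with the exon of the long isoform shaded. The shaded exon lies below the other exons in every library, at 114 to 169 RPKM at 4 months.

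Outside the 8 genes, 55 genes of the pathway were looked up, of which 51 were tested. Of these, 30 were higher, 4 were lower and 17 did not pass the test, with a median log2 fold change of 0.85. Over all genes tested, 14.7% were higher and 21.1% lower. The number of lower pathway genes was 2 without PND2 replicate 2, without PND2 replicate 3 or without 4 months replicate 3. With 1 of 7 higher and 1 lower, the factors that bind the class II promoter did not stand out from the shares of all genes. Of 7, Rfx5, which binds the X box, was higher (5.85 ± 0.421 to 9.23 ± 1.97 RPKM, log2 fold change 0.63, limma adjusted p = 0.028). Nfyc, a subunit of the Y box factor NF-Y, was lower (22.7 ± 2.79 to 14.7 ± 1.83 RPKM, log2 fold change -0.63, limma adjusted p = 0.013). Rfxap, Rfxank, Nfya, Nfyb and Creb1 did not pass, with log2 fold changes of -0.39 to -0.08.

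Among 12 genes that induce or restrain Ciita, 6 were higher, 1 was lower, 4 did not pass and 1 was not tested. The shares of all genes were 14.7% higher and 21.1% lower. Ifng, the gene of interferon gamma, had 0 reads in all 6 libraries, which allows up to 0.0856 RPKM at 4 months. Its receptor genes moved in opposite directions, Ifngr1 up (log2 fold change 0.39, limma adjusted p = 0.01) and Ifngr2 down (-0.30, limma adjusted p = 0.03). Irf1, a transcription factor induced by interferons, rose from 8.08 ± 1.06 to 18.6 ± 2.73 RPKM (limma adjusted p = 0.0013). The myeloid and lymphoid factors Irf4 (log2 fold change 2.21), Irf8 (1.06) and Spi1 (1.09) were higher too. Jak1, Jak2, Socs1 and Prdm1 did not pass.

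The endosomal enzymes were already abundant at PND2. Of 9 genes for processing and turnover, 5 were higher, 0 lower and 4 did not pass by limma, against 14.7% higher and 21.1% lower of all genes. Ctss, the protease that makes the last cut in the invariant chain in many antigen-presenting cells, rose from 47.5 ± 7.03 to 90.4 ± 5.86 RPKM (log2 fold change 0.94, limma adjusted p = 0.0016). Ctsb rose from 167 ± 15.8 to 369 ± 21.1 RPKM (limma adjusted p = 0.00036), and Ctsd and Sppl2a had log2 fold changes of 0.66 and 0.33. March1, a ubiquitin ligase that removes class II from the surface, had the largest rise of this list, from 0.256 ± 0.167 to 1.09 ± 0.317 RPKM (log2 fold change 1.79, limma adjusted p = 0.015). Ctsl, Lgmn, Ifi30 and March8 did not pass, with log2 fold changes of -0.36 to 0.14.

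Of 6 genes for costimulatory and inhibitory ligands, Cd274, Icosl, Cd80 and Cd86 were higher, Cd40 was lower and Pdcd1lg2 was below the filter. The shares of all genes were 14.7% higher and 21.1% lower. Cd274, which encodes PD-L1, rose from 0.518 ± 0.0810 to 4.66 ± 1.10 RPKM (log2 fold change 2.93, limma adjusted p = 0.00029). Cd80 and Cd86, the ligands of CD28, had log2 fold changes of 1.36 and 1.33. Cd40, a receptor through which T cells activate presenting cells, was at 5.63, 3.98 and 5.53 RPKM at PND2 and at 1.203, 0.8755 and 1.31 RPKM at 4 months. It fell with a log2 fold change of -2.07 ± 0.24 (SE, adjusted p = 0.00093 by limma), opposite to the class II genes. Of the 6 genes for MIF, the cytokine that binds CD74 at the surface, and its partners, the MIF homologue Ddt was higher (log2 fold change 0.85), Mif was lower (-0.69, limma adjusted p = 0.027) and 4 did not pass. With 1 higher and 1 lower, this list did not stand out from the shares of all genes.

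Class I presentation, which displays peptides from within the cell, was higher in all 11 genes tested, against 14.7% of all genes. Its median log2 fold change was 2.25 against 4.57 for the class II genes. Nlrc5, the class I counterpart of Ciita, rose from 0.272 ± 0.117 to 2.85 ± 0.136 RPKM (log2 fold change 3.05, limma adjusted p = 0.00059). H2-K1 rose from 38.5 ± 4.72 to 260 ± 16.7 RPKM, and B2m, the light chain, from 419 ± 36.8 to 1352 ± 12.2 RPKM. Tapbp had the lowest log2 fold change of the list, 0.94. At PND2 the class I list summed to 601 to 701 RPKM against 21.5 to 22.8 RPKM for the 8 class II genes.

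**Figure D3:**
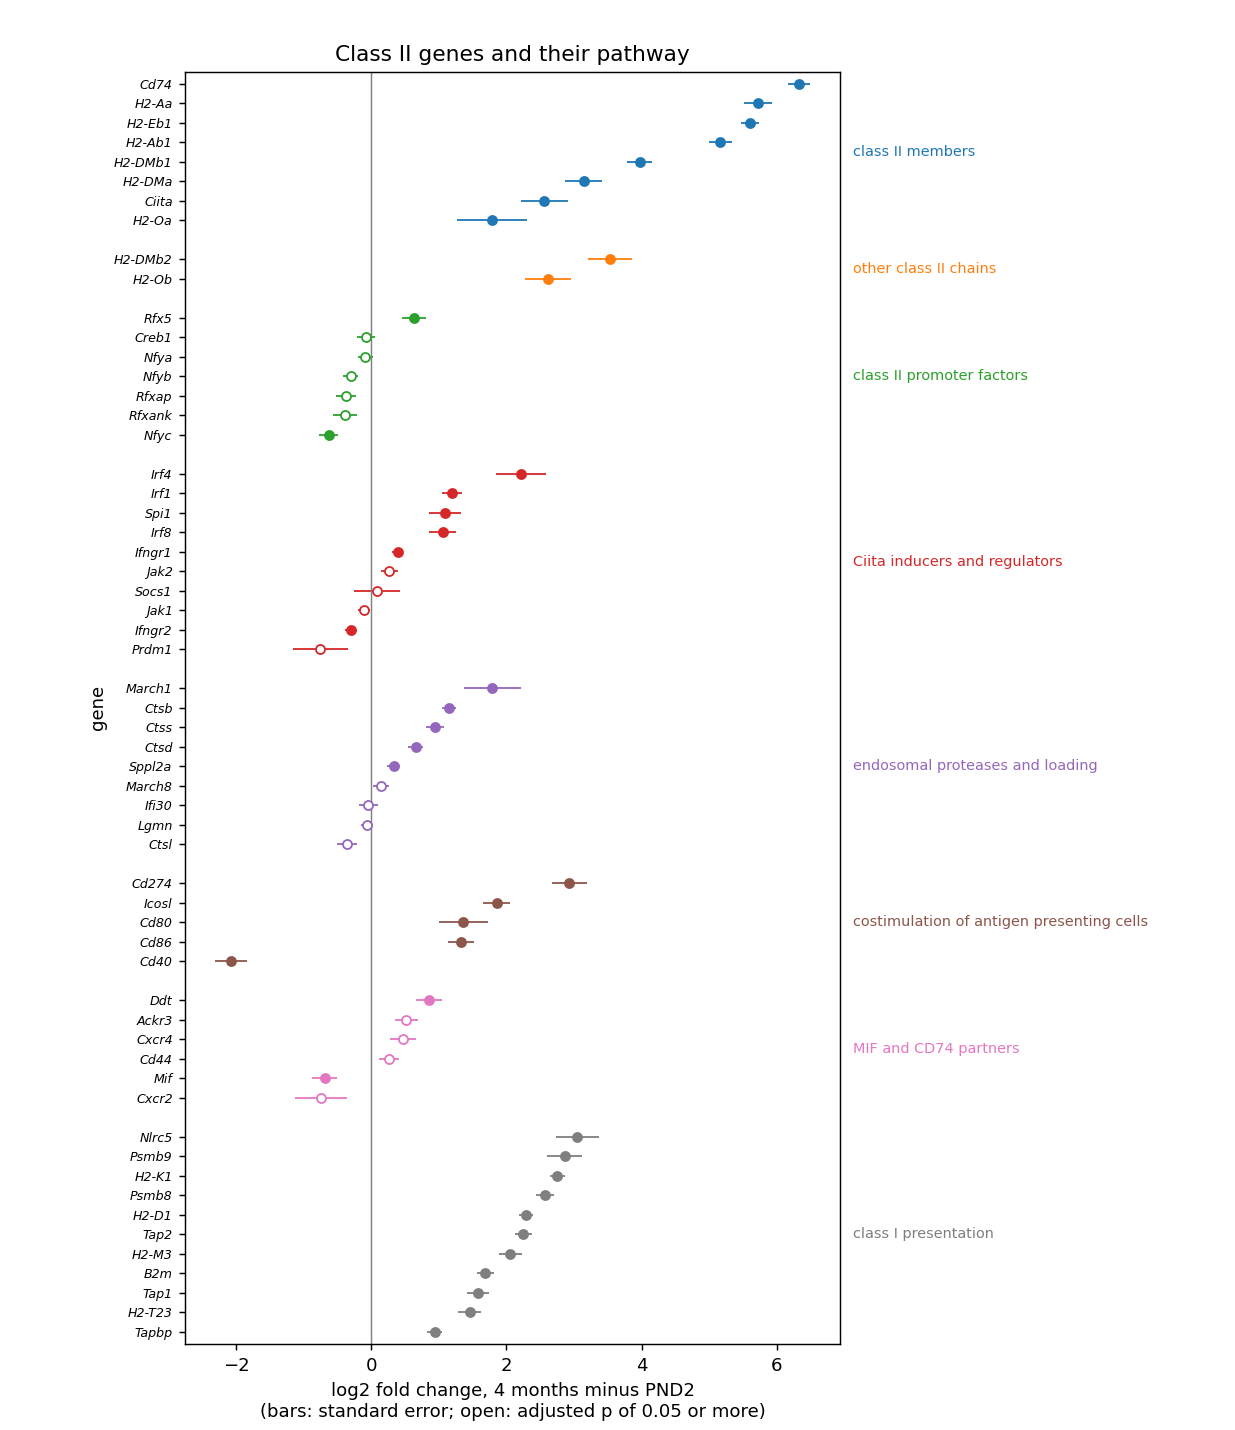
Log2 fold change, 4 months minus PND2, on the log2(RPKM + 0.1) scale, for the 8 class II genes and the tested genes of the pathway lists but 1, with bars for the standard error; filled points have a limma adjusted p under 0.05. The class II genes lie between 1.79 and 6.33, the promoter factors between -0.63 and 0.63, and the class I genes between 0.94 and 3.05.

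Genes of the cells that could carry class II were examined beside these results. Over all genes tested, 14.7% were higher and 21.1% lower, as the background for the counts in these lists. The 6 genes shared by leukocytes were all higher, and their summed level went from 40.1 to 50.1 RPKM at PND2 to 108 to 126 RPKM at 4 months, 2.62-fold. Of 12 dendritic cell genes 7 were higher and 0 lower by limma, and the sum went from 6.57 to 8.25 RPKM to 65.3 to 75.0 RPKM, 9.19-fold. Mgl2, a lectin of dendritic cells and some macrophages, made up much of it, at 0.0857, 0.172 and 0.408 RPKM at PND2 and 44.1, 43.2 and 37.7 RPKM at 4 months (log2 fold change 7.14, limma adjusted p = 3.5e-05). Clec10a, Cd209a and Itgax had log2 fold changes of 4.75, 4.02 and 3.54, and Siglech, Xcr1 and Itgae of 2.32 to 2.59. Zbtb46, Flt3, Ccr7, Clec9a and Batf3 did not pass, and the level of Zbtb46, a factor of conventional dendritic cells that endothelium also expresses, was 4.56 and 4.55 RPKM.

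Of 15 macrophage and monocyte genes 11 were higher, against 14.7% of all genes, and Cx3cr1 was lower. The sum went from 314 to 442 RPKM to 622 to 785 RPKM, 1.87-fold. Timd4 and Folr2 had the largest rises (log2 fold changes 4.20 and 2.75), followed by Cd163 (2.47) and Ccr2 (2.21). Mrc1, Fcgr1 and Lyve1 did not pass, with log2 fold changes of 0.49, 0.14 and -0.91. Csf1r, the receptor for the main macrophage growth factor, went from 28.6 ± 3.11 to 59.4 ± 7.47 RPKM. Macrophage transcripts were thus present at both ages.

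B cell genes gave a mixed picture, with a sum of 4.27 to 9.18 RPKM at PND2 and 20.0 to 36.4 RPKM at 4 months. Of the 8, Ighm, Ighd and Blk were higher, 3 others, Cd79a and Cd79b among them, did not pass, and Ms4a1 and Pax5 were below the filter. The shares of all genes were 14.7% higher and 21.1% lower. Ighm made up much of the sum, at 5.36, 3.04 and 1.885 RPKM at PND2 and 27.65, 29.55 and 17.46 at 4 months. Cd79a, a chain of the B cell receptor complex, was at 0.619 ± 0.258 RPKM at PND2 and 0.502 ± 0.467 RPKM at 4 months. Its partner Cd79b was at 0.112, 2.02 and 0.217 RPKM in the 4 months libraries, highest in replicate 2. Among 9 T cell genes 5 were higher and 2, Lck and Trac, were lower. The sum was 4.32 to 9.59 RPKM at PND2 and 5.15 to 5.56 RPKM at 4 months. Much of the PND2 sum was Trac, at 2.66, 3.40 and 7.46 RPKM, against 1.43, 0.449 and 0.517 RPKM at 4 months. Cd3e had 0 reads in all 3 PND2 libraries and 0.298 ± 0.0299 RPKM at 4 months, at least 4.62-fold higher against a floor of 3 reads per library. Of 8 endothelial genes 7 were lower, and their sum went from 431 to 599 RPKM to 254 to 276 RPKM. The part of any of these cell types in the class II rise was not tested.

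**Figure D4:**
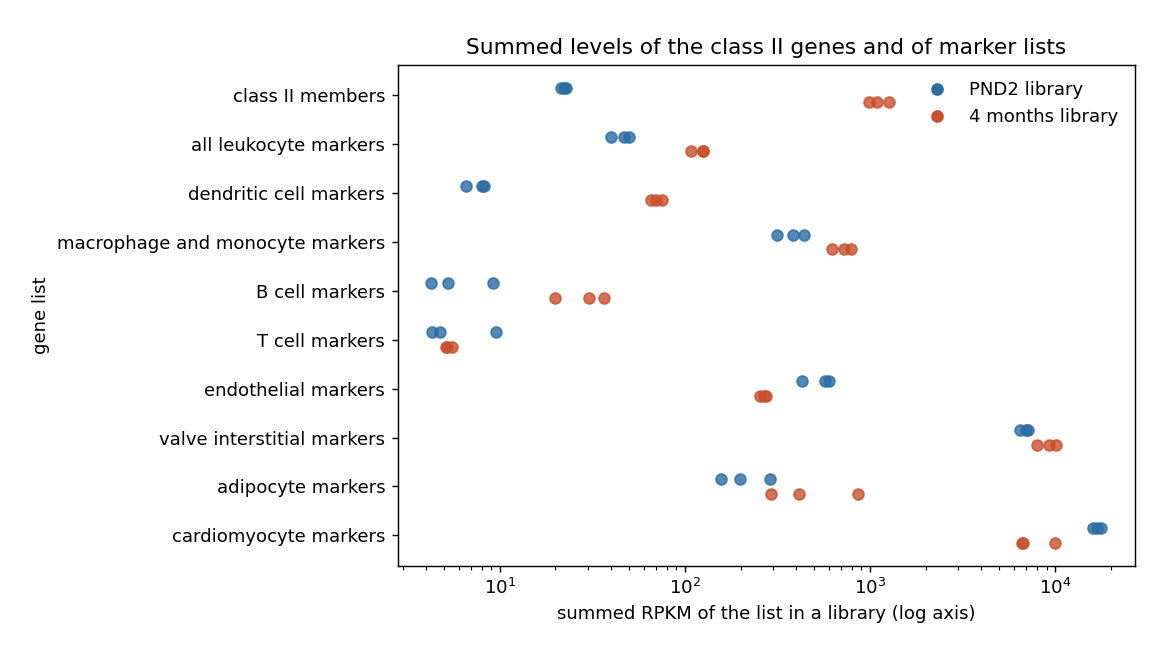
Summed RPKM (log axis) of the class II genes and of 9 marker lists in each PND2 library (blue) and each 4 months library (red). The class II sum moves from 21.5 to 22.8 up to 984 to 1264 RPKM, while the macrophage sum moves from 314 to 442 up to 622 to 785 RPKM and the T cell sums of the ages overlap.

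Set against Ptprc, the leukocyte gene for CD45 (0.658 ± 0.0603 and 2.66 ± 0.226 RPKM), 7 of the 8 class II genes were higher per Ptprc in every 4 months library than in any PND2 library, which held for 1.69% of all genes. The log2 ratio to Ptprc of Cd74 was 3.29, 2.94 and 3.08 at PND2 and 7.70, 7.29 and 7.71 at 4 months, a difference of 4.46. The differences were 3.85 for H2-Aa, 3.73 for H2-Eb1 and 3.30 for H2-Ab1, and they were smaller for H2-DMb1 (2.11), H2-DMa (1.28) and Ciita (0.69). The libraries of H2-Oa overlapped, with a difference of -0.08 (exact permutation p = 1.0) whose sign was not settled. It was 1.06 with 0.01 RPKM added in place of 0.1, which is near the PND2 mean of this gene, and leaving out PND2 replicate 3 gave -0.62, while leaving out PND2 replicate 2 gave 0.29. For each of the other 7 the 2-sided exact permutation p was 0.1, the smallest possible here, and 0.114 after adjustment over the 8 ratios.

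**Figure D5:**
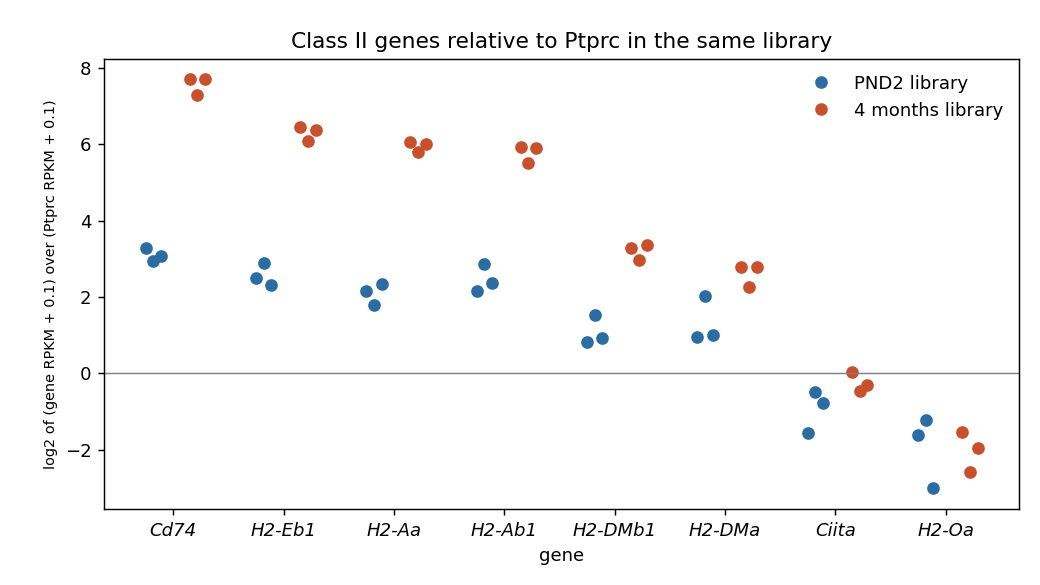
Log2 ratio of each class II gene to Ptprc in the same library, with 0.1 RPKM added to both, for the PND2 (blue) and 4 months (red) libraries. The ages are apart for 7 genes, by a mean of 0.69 for Ciita up to 4.46 for Cd74, and overlap for H2-Oa.

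The genes whose profile over the 6 libraries lay nearest to the mean profile of the 8 were sought among 19593 genes, by the root mean square difference of centred log2 values. The nearest 10 were Sfrp4 (0.164), Susd5 (0.207), Sorl1 (0.211), Sod3 (0.241), Gm22358, Timd4 and Gm26776 (0.245 each), Ccdc3 (0.246), Bcl6 (0.256) and C4a (0.258). Sfrp4, which encodes a secreted inhibitor of Wnt signalling, went from 0.390 ± 0.0341 to 8.75 ± 0.0803 RPKM, and Sod3, an extracellular superoxide dismutase, from 18.4 ± 3.51 to 296 ± 53.0 RPKM. The 8 genes themselves lay between 0.179 (H2-DMb1) and 1.335 (H2-Oa) from their mean. With 2 ages and 6 libraries, this measure mostly reflects the size of the difference between the ages.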

How the data were processed

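RNA-seq was carried out on aortic valves at 2 ages, with 3 libraries each. The authors trimmed the paired reads, aligned them to mm10 with TopHat2 2.1.0 (submitters' processing notes) and counted them on Ensembl release 83 genes and exons in R 3.2.2. They deposited RPKM values per gene and per exon. Whole reads, recovered within 0.001 of a whole number for 100% of the gene values above 0, show library totals of 23810507 to 38994657. The unit of these totals, and whether counting used strand, is not given in the sources used here. Most of the totals exceed the average number of read pairs per sample that the paper reports. The reads named in the text are recovered counts, in which a read may be counted more than once. The counting limits given cover counting error only.

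Genes that reached 0.1 RPKM in 3 or more libraries were compared with limma 3.58.1 (R 4.3.3) on log2(RPKM + 0.1), using moderated variances with a trend, 2-sided, and Benjamini-Hochberg adjustment over 25903 genes at 0.05. This scale understates changes of low genes. Single values were compared by exact permutation. Tables and figures used Python 3.11.15 with matplotlib 3.10.9, scipy 1.17.1, pandas 2.3.3 and numpy 2.4.6. The steps were tested on simulated data. Alternatives were pseudocounts, filters, scalings, a floor of 10 reads, no trend, an unequal-variance test per gene as in the study, voom weights, the replicate number as a block, ratios to Laptm5 or Csf1r, other denominators for the exon share, a window of 150 bases and each library left out in turn. The ratios between class II genes and the denominators of flanking exons and of exons over 100 bases were added after the values were seen.

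The genes, lists and tests were chosen with earlier results of these data known. All 8 genes are named, with those called or at 0 in each list and the 10 genes of most similar profile (mean RPKM of at least 1 at 4 months). Some genes of the lists enter the counts but are not reported here by name. The labels name no batch. Nothing in them says how the pools relate across ages. If the pools of an age were not separate, the p-values measure technical spread.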

Additional observations from a re-analysis of the deposited data

How the results depend on the processing

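All 143 alternative values of the fold changes of the 8 class II genes were above 0. The 7 genes other than H2-Oa passed the threshold in 119 of 119 alternative tests. H2-Oa passed in 9 of 16. Its limma adjusted p was 0.09 at a pseudocount of 0.01, 0.056 with values up to 10 reads raised to 10 reads and 0.053 with the replicate block. The unequal-variance test per gene, which is not limma, gave it an adjusted p of 0.13, and it was not tested with a filter of 1 RPKM. H2-Oa rests on 0 to 44 recovered counts per library, in which a read may be counted more than once. With each library left out in turn, 7 to 8 of the 8 genes, 2634 to 3467 genes in all that were higher and 3403 (without PND2 replicate 3) to 5114 that were lower, 26 to 29 higher and 2 to 4 lower pathway genes, and 27 to 32 higher leukocyte genes were called. The share of the Cd74 exon then ran from 16.56 to 18.52% at 4 months and from 11.97 to 21.68% at PND2. Against the mean of the other exons the share at 4 months was 20.61%, and against the median of the other exons over 100 bases, added after the values were seen, 33.56%.

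The unequal-variance test called 1466 genes higher and 1942 lower, where limma called 3810 and 5463, and 17 higher and 1 lower of the pathway genes and 20 leukocyte genes. Without a trend, 2 pathway genes were lower. The deviations of libraries with the same replicate number correlated at 0.0439, -0.0608 and -0.16, and those with different numbers at -0.176 to 0.233. With 3 libraries per age, these values cannot decide whether libraries of the same number were related. With the replicate number as a block, 7 of the 8 class II genes were called and 2 pathway genes were lower. Ratios to Csf1r in place of Ptprc gave larger differences, 5.28 for Cd74 and 2.09 for H2-DMa, and for H2-Oa gave 0.73, with 0.41 against Laptm5. The cause of these shifts was not tested.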
